A study of Mus musculus with 11 samples.

Results

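The genes described here are the ligands and receptors of the tumor necrosis factor (TNF) superfamily, in whole livers of mice in which an active form of YAP was switched on for 3 or 7 days. Members were taken by symbol: every row of the deposited table named Tnfsf or Tnfrsf with a number, and Tnf, Lta, Ltb, Ltbr, Fas, Fasl, Cd40, Cd40lg and Cd27, with Tnfrsf12a left out. This gave 38 of the 20893 rows, 15 of them ligands and 23 receptors. At least 0.5 eRPKM in at least 3 libraries was required for a test, which 26 members passed (6 ligands and 20 receptors) among 14244 genes in all.

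TNF superfamily ligands are trimeric proteins, most of them made as membrane proteins that can be shed, and each is bound by 1 or a few receptors. Receptors with a death domain, such as Tnfrsf1a, Fas and Tnfrsf10b, can recruit FADD and caspase 8, while receptors without one recruit TRAF proteins and activate NF-κB and JNK. In the liver, TNF made by Kupffer cells (the resident macrophages) takes part in both the priming of regeneration and hepatocyte death, and Fas is a well known trigger of hepatocyte apoptosis.

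RNA-seq was performed on 11 libraries from homogenized livers of the C57BL/6 background, all carrying the label ROSA26-rtTA-IRES-EGFP, a doxycycline-dependent activator. The 4 control livers carried no tetYAP (labelled WT) and had 7 days of doxycycline in the food, 4 livers carried tetYAP with 3 days of doxycycline, and 3 carried tetYAP with 7 days. The transgene encodes a YAP that cannot be phosphorylated at its main inhibitory site, and the activator is released by a Cre driven by the albumin promoter, so induction is aimed at hepatocytes, while the RNA comes from every cell of the organ. Whether the control livers also carried this Cre is not stated. Sex and age are not given in the labels, and there was no 3-day control. That the libraries of a group came from separate mice is not stated in the labels, so p-values measure the spread between these livers.

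The libraries held 1251396 to 5941357 reads on genes, the 7-day livers being deepest (5312486 to 5941357), the 3-day livers in between (2660233 to 3681416) and the controls the most uneven (1251396 to 5495697). The Yap1 row ranged from 13.9 to 21.1 eRPKM in controls and from 17.4 to 19.0 at 7 days, and whether reads of the transgene fall on that row is not stated. Ctgf, a known target of YAP, ranged from 5.20 to 14.2 eRPKM in controls, from 15.3 to 34.2 at 3 days and from 87.3 to 103 at 7 days. Xist was high in control livers 2 and 3, in 3-day livers 3 and 4 and in all 3 livers at 7 days, so sex was not balanced over the groups. The median log2 fold change of all genes tested was 0.02 at 3 days and 0.26 at 7 days against controls, and 0.02 at 7 days with median-ratio size factors.

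Promoter windows are shown for the called members with the 3 highest levels at 7 days and for Tnfrsf11a, which had the largest change on the log2(eRPKM + 0.5) scale. These 4 receptors were chosen by level and size of change only, and a shared control of them was not tested. Each window runs from 250 bases before to 50 bases after the start of the gene (RefSeq, GRCm38.p6, whereas the expression table is on mm9). Capitals mark GGAATG, the letters of the TEAD motif through which YAP is brought to DNA, searched on both strands.
Tnfrsf1a, chr6:125349473-125349772, plus strand: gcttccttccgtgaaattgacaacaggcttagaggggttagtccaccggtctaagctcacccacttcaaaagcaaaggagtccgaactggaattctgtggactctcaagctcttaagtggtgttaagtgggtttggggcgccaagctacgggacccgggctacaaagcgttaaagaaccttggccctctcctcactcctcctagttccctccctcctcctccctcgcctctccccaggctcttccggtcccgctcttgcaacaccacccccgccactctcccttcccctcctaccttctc
Tnfrsf19, chr14:61046806-61047105, minus strand: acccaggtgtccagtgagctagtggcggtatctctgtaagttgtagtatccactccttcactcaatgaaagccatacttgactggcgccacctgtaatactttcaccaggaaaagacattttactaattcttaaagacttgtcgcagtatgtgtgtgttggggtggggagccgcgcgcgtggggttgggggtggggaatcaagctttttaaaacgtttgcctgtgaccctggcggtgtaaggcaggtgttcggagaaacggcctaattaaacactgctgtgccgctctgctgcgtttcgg
Tnfrsf21, chr17:43016305-43016604, plus strand: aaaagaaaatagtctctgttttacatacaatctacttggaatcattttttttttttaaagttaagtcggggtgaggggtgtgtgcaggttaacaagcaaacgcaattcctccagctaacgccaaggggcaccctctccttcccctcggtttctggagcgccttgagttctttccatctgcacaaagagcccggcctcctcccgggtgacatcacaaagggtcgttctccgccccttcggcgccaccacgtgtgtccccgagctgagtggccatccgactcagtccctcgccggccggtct
Tnfrsf11a, chr1:105780473-105780772, plus strand: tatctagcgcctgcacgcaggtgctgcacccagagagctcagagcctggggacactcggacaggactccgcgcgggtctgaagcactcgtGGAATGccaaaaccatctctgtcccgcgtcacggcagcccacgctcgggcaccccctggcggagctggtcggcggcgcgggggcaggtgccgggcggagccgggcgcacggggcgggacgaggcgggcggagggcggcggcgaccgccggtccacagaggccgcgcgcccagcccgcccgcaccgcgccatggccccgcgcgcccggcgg
Only the Tnfrsf11a window of these 4 held the TEAD letters, once, from position 91, and none of the 4 held the kappaB consensus bound by NF-κB. The TEAD letters were found in 3955 of 27025 mouse promoter windows (14.6%) and the kappaB consensus in 2211 (8.18%). Of the 12 members called in any comparison, 9 had a window, of which 2 held the TEAD letters and 0 the kappaB consensus. Tnfrsf19 has 2 listed starts and the first was used.

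No member was called after 3 days of YAP induction. Of the 26 members tested, 0 rose (0.0421% of all genes tested rose) and 0 fell (0.0% of all genes fell), where a call needed a Benjamini-Hochberg adjusted p under 0.01 in limma and an absolute log2 fold change above 0.5. Log2 fold changes ran from -0.61 for Tnfrsf18 (GITR, a receptor found on T cells) to 0.60 for Tnfrsf14, the LIGHT receptor HVEM, and the lowest adjusted p was 0.363. With voom on the whole reads 0 were called as well. Fas at 0.44 and Tnfrsf23 at -0.58 were the 2 of 26 members with an unadjusted p under 0.05, against 1718 of all 14244 genes tested. In 0 members did the groups not overlap (3.38% of all genes lay higher in every 3-day liver and 2.25% lower). The median over the members tested was -0.15, against 0.02 over all genes.

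After 7 days, 7 of the 26 members rose against controls (26.9%, against 18.0% of all genes tested), and 1 fell (3.85%, against 5.77%). The risers were the ligands Tnf and Tnfsf13 and the receptors Tnfrsf11a, Tnfrsf26, Cd40, Tnfrsf19 and Tnfrsf21, and the ligand that fell was Tnfsf10. The other 18 members did not pass the test. In 12 members every 7-day liver lay above every control (36.7% of all genes did), and in 1 every one lay below (13.3%). The median log2 fold change was 0.59 over the members and 0.26 over all genes tested. Of the 26 members, 3 (Tnf, Tnfrsf13b and Tnfsf14) passed the filter only with the help of the 7-day livers, so these counts and the median are a description.

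**Figure D1:**
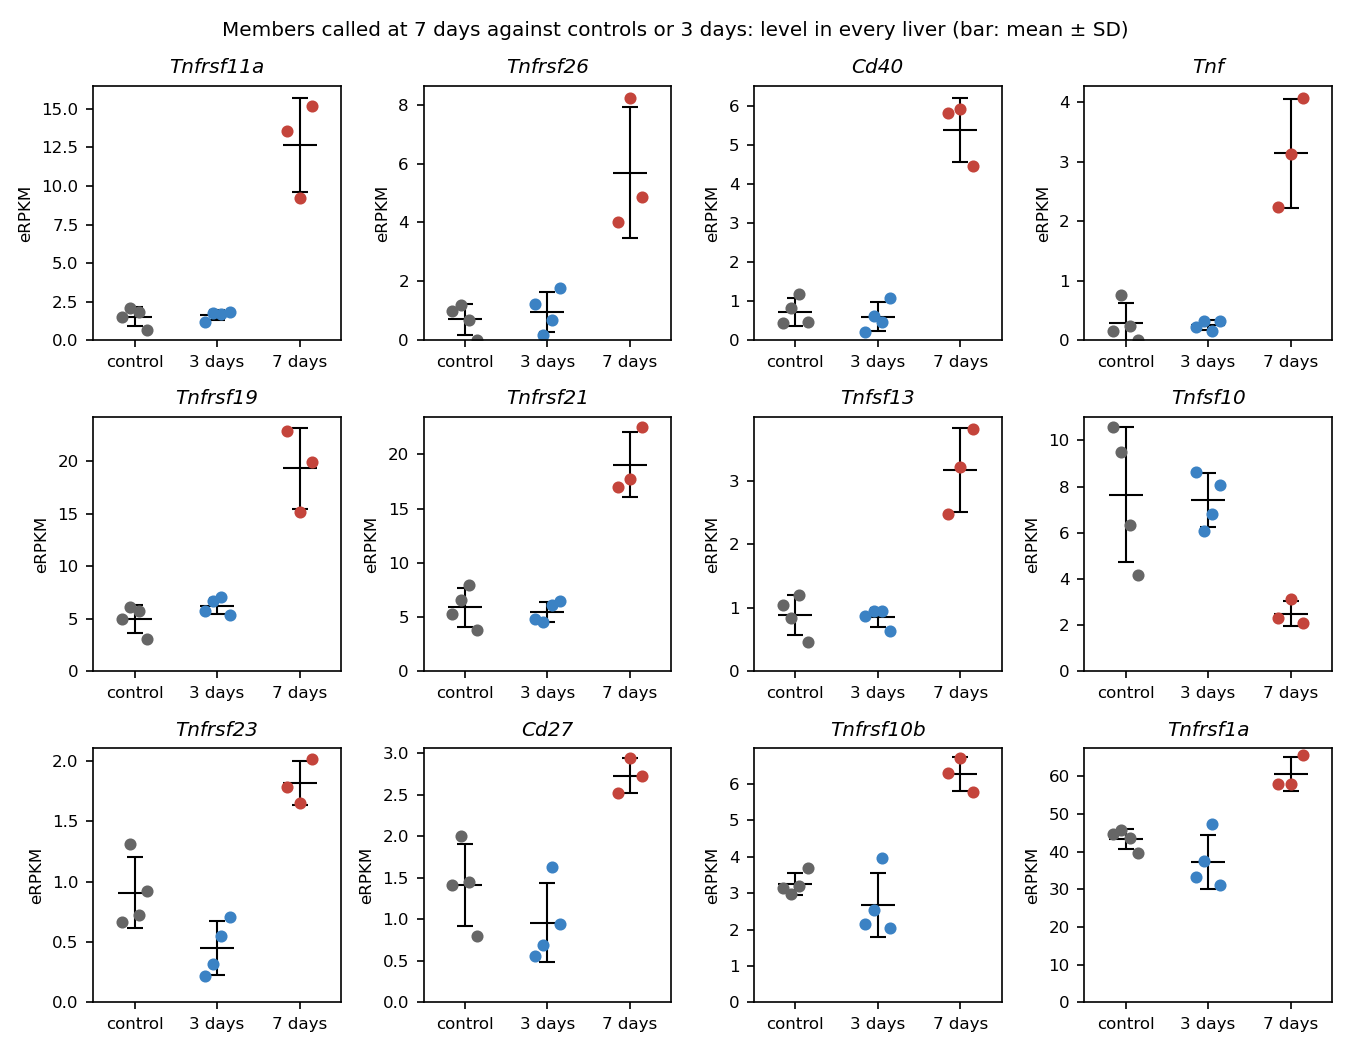
eRPKM (linear axis from 0) of the 12 members called at 7 days against controls or against 3 days, 1 point per liver, with the group mean and SD as bars, which are drawn only above 0. In Tnfrsf11a the 7-day livers sit between 9.24 and 15.2 and all other livers at 2.07 or lower, and Tnfsf10 is the 1 panel where the 7-day livers sit lowest.

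**Figure D2:**
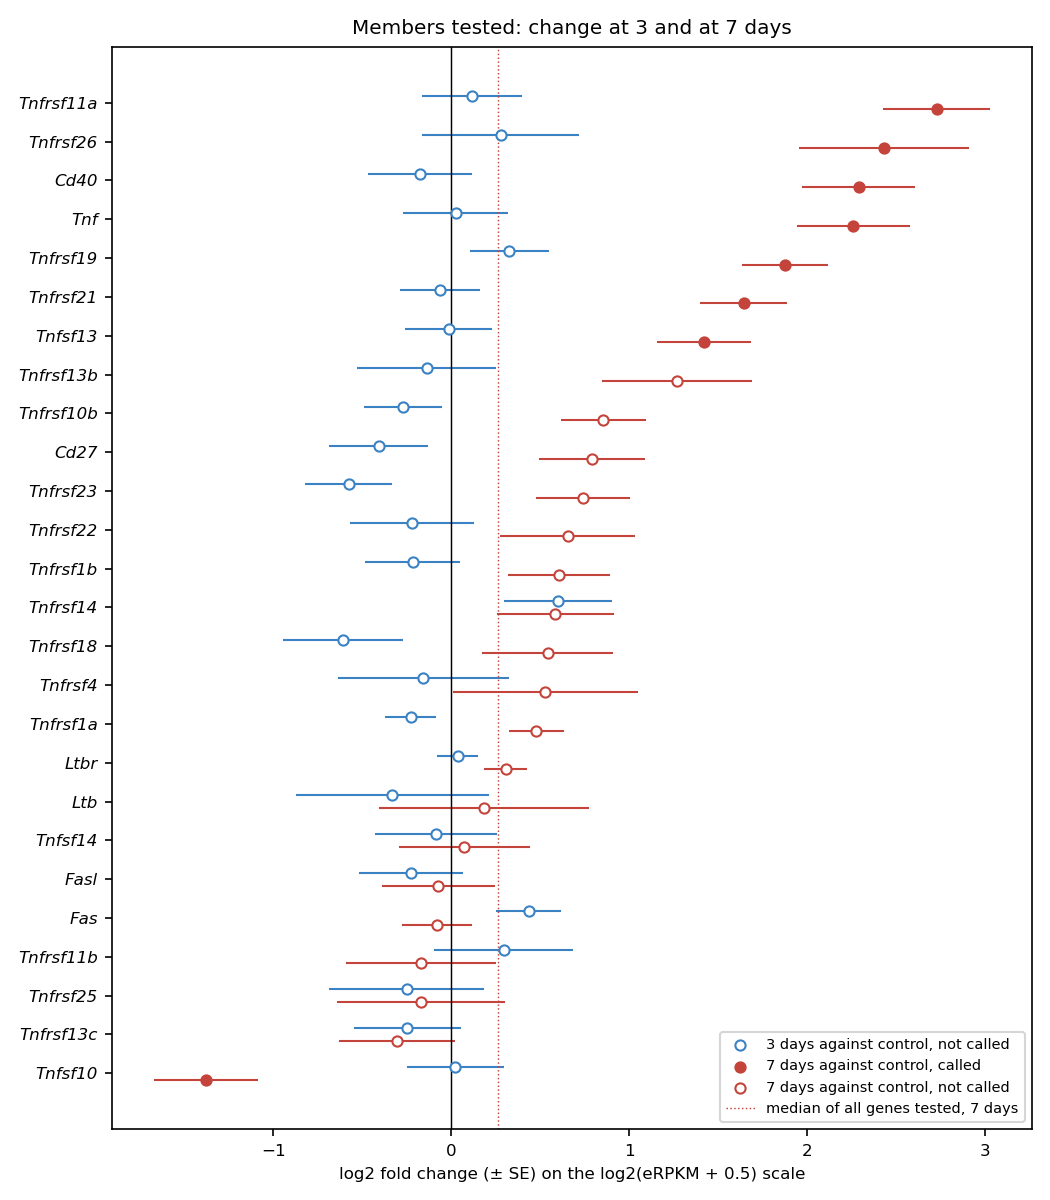
Log2 fold change with its SE against controls at 3 days (blue) and at 7 days (red) for the 26 members tested, ordered by the 7-day value, with called values filled. At 3 days no point is filled, and at 7 days 7 filled points lie to the right of the median of all genes (dotted line, 0.26) and 1, Tnfsf10, to the left of 0.

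Tnf, the founding cytokine of the family, was close to the limit of detection before 7 days. It stood at 0.154, 0.763, 0.249 and 0 eRPKM in control livers 1 to 4, at 0.225, 0.331, 0.163 and 0.326 in 3-day livers 1 to 4, and at 2.24, 3.13 and 4.06 in 7-day livers 1 to 3. All 7-day livers lay above all others, with 20 to 36 reads each against 0 to 7 in controls and 1 to 2 at 3 days. On the log2 scale Tnf rose by 2.26 (SE 0.32, adjusted p = 1.6e-04) against controls and by 2.23 (SE 0.32, adjusted p = 2.3e-04) against 3 days. The fit was log2(eRPKM + 0.5), which understates the change of so low a gene. Tnf passed the filter only with the help of the 7-day livers (1 of the 8 other livers reached 0.5 eRPKM), so it could be tested only because it was high there. The counts carry counting error as well, and the 0 reads of control liver 4, the shallowest library, allow up to 1.44 eRPKM (3 reads).

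Tnf lies on chromosome 17 (mm9, chr17:35336326-35338952) between Ltb (chr17:35331384-35333265) and Lta (chr17:35340110-35342296), the genes of the lymphotoxins. Neither neighbor was called. Lta, under the filter, had 0 reads in all 7 induced livers, which allows at most 0.396 eRPKM at 7 days and 0.791 at 3 days, and in controls it had 4 reads in liver 2, 1 in liver 4 and 0 in the other two. Ltb averaged 1.54 ± 0.951 (SD, n = 4) in controls and 1.8 ± 1.04 (SD, n = 3) at 7 days, with a log2 fold change of 0.18 (SE 0.59, adjusted p = 0.832) and a 95% interval of -1.09 to 1.46.

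The receptors of TNF were among the most abundant members. Tnfrsf1a, the death domain receptor TNFR1, measured 44.7, 45.7, 43.6 and 39.6 eRPKM in the controls, 33.3, 37.5, 47.3 and 31.3 at 3 days and 57.9, 58.1 and 65.8 at 7 days. The 7-day livers were above all others, yet against controls the change of 0.48 (SE 0.15, adjusted p = 0.0272) missed the threshold. It passed under quantile normalization (0.58, adjusted p = 0.0074) and with the MF label suffix as a covariate (0.56, adjusted p = 0.00722). Against 3 days it rose, by 0.71 (SE 0.15, adjusted p = 0.00409). With median-ratio size factors that step fell short of a call (0.46, adjusted p = 0.0304), and the call was also lost without 3-day liver 1 or 4 or any 1 of the 7-day livers, at 0.63 to 0.74, with log2 Xist or depth as a covariate, with 2 groups only and among Xist-high livers (0.65, adjusted p = 0.0455). A block for replicate numbers ended the call as well (0.65, adjusted p = 0.0101). Tnfrsf1b, TNFR2, which is mainly found on immune and endothelial cells, was not called in any comparison. It averaged 13.6 ± 3.17 eRPKM (SD, n = 4) in controls, 12.2 ± 5.13 (n = 4) after 3 days and 20.6 ± 2.37 (n = 3) after 7 days, with 0.60 (SE 0.29, adjusted p = 0.116) against controls and 0.82 (SE 0.29, adjusted p = 0.0414) against 3 days, and the latter passed without 3-day liver 3 (1.02, adjusted p = 0.00992).

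In the TRAIL system the ligand fell at 7 days and its death receptor rose between 3 and 7 days. Tnfsf10 (TRAIL, chr3:27215950-27241349), which can kill cells through death receptors, stood at 10.6, 9.52, 6.34 and 4.17 eRPKM in the controls, 8.63, 6.07, 6.82 and 8.08 at 3 days and 2.31, 3.12 and 2.07 at 7 days. Every 7-day liver lay below every other liver, and control liver 4 was the lowest of the rest. On the log2 scale it changed by -1.38 (SE 0.29, adjusted p = 0.00277) against controls and -1.40 (SE 0.29, adjusted p = 0.00321) against 3 days. The call against controls was lost without 7-day liver 1 (-1.34, adjusted p = 0.0137) or 3 (-1.27, adjusted p = 0.0172), and that against 3 days without 3-day liver 4 (-1.36, adjusted p = 0.010), 7-day liver 1 (-1.36, adjusted p = 0.0155) or 7-day liver 3 (-1.3, adjusted p = 0.0195).

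Tnfrsf10b (DR5, chr14:70167279-70184210), the death receptor that binds TRAIL in the mouse, measured 3.16, 2.97, 3.19 and 3.69 eRPKM in controls, 2.16, 2.54, 3.97 and 2.04 at 3 days and 6.31, 6.72 and 5.79 at 7 days. The 7-day livers were above all others. The log2 fold change against controls, 0.85 (SE 0.24, adjusted p = 0.0133), did not pass the test. It did without 3-day liver 3 (0.85, adjusted p = 0.00559) and with voom on the whole reads (0.97, adjusted p = 0.00287). It also did with 2 groups only (0.85, adjusted p = 0.00787) and with the MF label suffix as a covariate (0.94, adjusted p = 0.00933). Against 3 days it rose by 1.13 (SE 0.24, adjusted p = 0.00338), a call that was lost without 3-day liver 4 or any 1 of the 7-day livers, at 1.03 to 1.18, under quantile normalization (0.45, adjusted p = 0.111), with log2 Xist as a covariate and among Xist-high livers (1.01, adjusted p = 0.0403). A block for replicate numbers ended this call too (1.11, adjusted p = 0.0128).

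Mice also have a cluster of receptors on chromosome 7, among them the decoys Tnfrsf22 and Tnfrsf23, which bind TRAIL without a death domain, and the related Tnfrsf26. Tnfrsf26 (chr7:150793568-150813858) measured 1.0, 1.18, 0.677 and 0 eRPKM in controls, 1.22, 0.18, 0.708 and 1.77 at 3 days and 4.01, 8.22 and 4.85 at 7 days. The 7-day livers were above all others, with 7-day liver 2 the highest. It rose by 2.43 (SE 0.48, adjusted p = 0.00168) against controls and by 2.15 (SE 0.48, adjusted p = 0.00452) against 3 days. Without 7-day liver 2 the first was no longer called (2.15, adjusted p = 0.0115), nor was it with depth as a covariate (1.71, adjusted p = 0.0348) or a pseudocount of 0.1 (3.26, adjusted p = 0.010). The second was lost without any 1 of the 7-day livers or 3-day liver 2, at 1.83 to 2.35, under quantile normalization (1.49, adjusted p = 0.030), with log2 Xist or depth as a covariate, with a pseudocount of 0.1 and among Xist-high livers. A block for replicate numbers also ended the second call (2.09, adjusted p = 0.0194).

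Tnfrsf23 (chr7:150851714-150871777) stood at 0.668, 1.31, 0.721 and 0.925 eRPKM in controls, 0.217, 0.319, 0.55 and 0.707 at 3 days and 1.78, 1.65 and 2.01 at 7 days, with the 7-day livers on top. Its change against controls, 0.74 (SE 0.27, adjusted p = 0.0432), was not called. Against 3 days it rose by 1.32 (SE 0.27, adjusted p = 0.00253), a call that was lost without 7-day liver 1 (1.33, adjusted p = 0.0111) or 3 (1.25, adjusted p = 0.0159), under quantile normalization (0.74, adjusted p = 0.0594), with depth as a covariate (1.21, adjusted p = 0.0117) and among Xist-high livers (1.04, adjusted p = 0.0426). Tnfrsf22 averaged 0.757 ± 0.477 (SD, n = 4) in controls and 1.55 ± 1.1 (SD, n = 3) at 7 days and was not called (0.65 (SE 0.38, adjusted p = 0.192)). Tnfrsf22 and Tnfrsf23 share 719 stretches of 50 bases in their transcripts (17.1% and 21.5% of each), so how reads were split between them is uncertain. Tnfrsf26 shares none with other members.

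Tnfrsf11a (RANK, chr1:107677300-107744558), the receptor through which RANKL drives osteoclast formation and lymph node development, had the largest log2 fold change of the members at 7 days on the log2(eRPKM + 0.5) scale. This order depends on the pseudocount: with 0.1 Tnf was at 3.42, Tnfrsf26 at 3.26 and Tnfrsf11a at 3.04. It stood at 1.5, 2.07, 1.86 and 0.689 eRPKM in controls, 1.16, 1.76, 1.73 and 1.87 at 3 days and 13.5, 9.24 and 15.2 at 7 days. The groups did not overlap, with 319 to 468 reads in the 7-day livers against 5 to 66 in the others, and the mean was 8.27 times that of controls. The change was 2.73 (SE 0.30, adjusted p = 3.2e-05) against controls and 2.61 (SE 0.30, adjusted p = 5.4e-05) against 3 days, while at 3 days it was 0.12 with a 95% interval of -0.49 to 0.72.

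Its ligand was hardly measured. Tnfsf11 (RANKL) had 1 read in control liver 1, 1 in 7-day liver 2 and 0 in the other libraries, where 0 reads allow up to 0.245 eRPKM at 7 days. Tnfrsf11b (osteoprotegerin), the soluble decoy that binds RANKL, averaged 6.25 ± 2.98 (SD, n = 4) eRPKM in controls, 7.5 ± 3.09 (n = 4) at 3 days and 5.18 ± 1.98 (n = 3) at 7 days. It was not called, at -0.17 (SE 0.42, adjusted p = 0.777) against controls with a 95% interval of -1.09 to 0.74. RANK was thus the lower of the 2 receptors per length in controls and the higher at 7 days, when each 7-day liver had more eRPKM of Tnfrsf11a than of Tnfrsf11b.

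Cd40 (chr2:164881127-164898448), the receptor by which T cells license B cells, dendritic cells and macrophages, stood at 0.444, 0.838, 1.2 and 0.461 eRPKM in controls, 0.216, 0.636, 0.47 and 1.1 at 3 days and 5.81, 5.91 and 4.45 at 7 days. All 7-day livers were above all others, at 41 to 61 reads against 1 to 8. It rose by 2.29 (SE 0.32, adjusted p = 1.4e-04) against controls and by 2.47 (SE 0.32, adjusted p = 1.1e-04) against 3 days. Cd40lg, its ligand on activated T cells, was under the filter, with 0 to 3 reads in every library and at most 0.645 eRPKM.

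Among the B cell factors, APRIL rose and BAFF was too low to test. Tnfsf13 (APRIL, chr11:69496348-69499286), a survival factor of plasma cells, stood at 1.04, 0.84, 1.2 and 0.462 eRPKM in controls, 0.867, 0.956, 0.942 and 0.628 at 3 days and 2.48, 3.21 and 3.81 at 7 days. The 7-day livers were above all others, and the change was 1.42 (SE 0.26, adjusted p = 0.00117) against controls and 1.43 (SE 0.26, adjusted p = 0.0014) against 3 days. Against controls the call was lost under quantile normalization (0.89, adjusted p = 0.0107), with depth as a covariate (1.22, adjusted p = 0.0143) and among Xist-high livers (1.26, adjusted p = 0.0164), and against 3 days under quantile normalization (0.76, adjusted p = 0.0268) and without 7-day liver 3 (1.31, adjusted p = 0.0116). Of its exon bases, 60.0% are shared with BC096441 on the same strand and 13.5% with 2010012P19Rik on the other, and the reads were aligned without strand, so its reads cannot be told from theirs.

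Tnfsf13b (BAFF) reached at most 0.69 eRPKM. Of the receptors of APRIL and BAFF, Tnfrsf13b (TACI) measured 0.86, 0.203, 0 and 0 eRPKM in controls, 0, 0.308, 0.304 and 0 at 3 days and 0.417, 1.88 and 1.68 at 7 days. The groups overlapped against controls, and neither 1.27 (SE 0.42, adjusted p = 0.0318) nor the step from 3 days, 1.41 (SE 0.42, adjusted p = 0.0218), was called. Without control liver 1 the first passed the threshold (1.59, adjusted p = 0.00908), and without 7-day liver 1 the second did (1.84, adjusted p = 0.00873). Tnfrsf13c (BAFF receptor) was at -0.30 (SE 0.33, adjusted p = 0.49) against controls, and Tnfrsf17 (BCMA), a plasma cell receptor, had 1 read in 2 libraries and 0 in the rest.

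**Figure D3:**
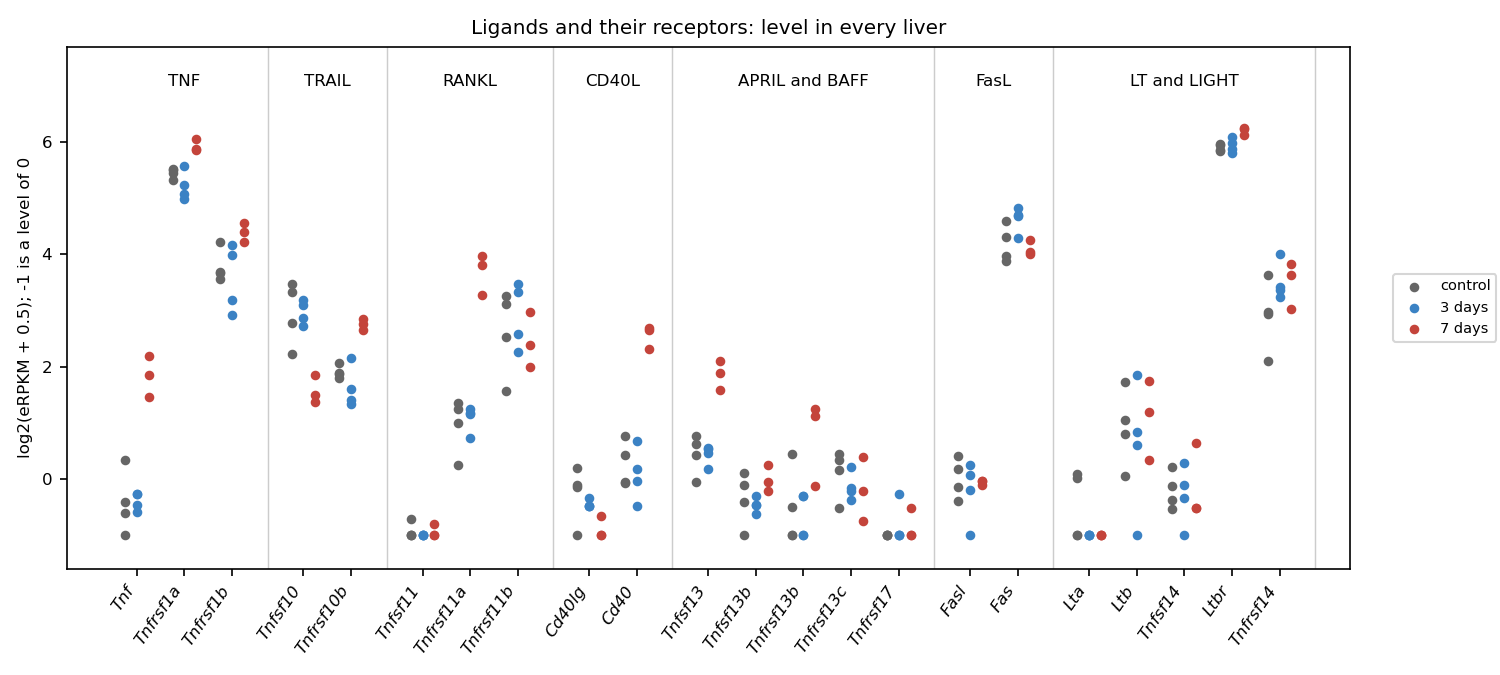
Level of ligands and their receptors as log2(eRPKM + 0.5), 1 point per liver, in controls (gray), at 3 days (blue) and at 7 days (red), grouped by ligand. The points at -1 are livers with 0 reads. Tnfsf11 lies at or near that floor in every group, while the 7-day points of Tnfrsf11a and Cd40 lie above all others of the same gene.

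Receptors with poorly known or developmental roles were also among the risers. Tnfrsf19 (TROY, chr14:61582671-61665692), a receptor of embryonic and stem cells, stood at 4.97, 6.13, 5.73 and 3.06 eRPKM in controls, 5.75, 6.71, 7.03 and 5.36 at 3 days and 22.9, 15.2 and 19.9 at 7 days. The 7-day livers did not overlap the others, and the change was 1.88 (SE 0.24, adjusted p = 8.5e-05) against controls and 1.55 (SE 0.24, adjusted p = 4.5e-04) against 3 days. Tnfrsf21 (death receptor 6, chr17:43153504-43226137), known from axon pruning and T helper cells, stood at 5.33, 6.61, 7.95 and 3.78 eRPKM in controls, 4.87, 4.56, 6.1 and 6.48 at 3 days and 17.0, 17.7 and 22.5 at 7 days. It too was separate from both other groups at 7 days, with 1.64 (SE 0.24, adjusted p = 2.4e-04) against controls and 1.71 (SE 0.24, adjusted p = 2.4e-04) against 3 days. Tnfrsf11a, Cd40, Tnf, Tnfrsf19 and Tnfrsf21 were called against controls and against 3 days under all 26 alternative settings, Xist-high livers alone among them. Of these genes, Tnf passed the filter only with the help of the 7-day livers. The looser threshold, 1 of the 26 settings, keeps every call by design.

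The most abundant member per length, Ltbr, the lymphotoxin beta receptor, averaged 59.5 ± 2.57 (SD, n = 4) eRPKM in controls and 73.5 ± 3.28 (SD, n = 3) at 7 days. Its change of 0.30 (SE 0.12, adjusted p = 0.0695) was not called, and it was 0.04 with size factors, but under quantile normalization it passed (0.50, adjusted p = 0.00144). Fas was at 18.1 ± 4.32 (SD, n = 4) in controls, 24.4 ± 3.8 (n = 4) at 3 days and 16.8 ± 1.67 (n = 3) at 7 days. Every 7-day liver had less Fas than every 3-day liver. The step, -0.52 (SE 0.20, adjusted p = 0.0573), missed the threshold, and it passed with size factors (-0.76, adjusted p = 0.00385) and quantile normalization (-0.77, adjusted p = 0.0026). Fasl, its ligand on cytotoxic lymphocytes, had at most 0.819 eRPKM and a change of -0.07 at 7 days against controls, with a 95% interval of -0.76 to 0.61.

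Cd27 (chr6:125182640-125187028), a costimulatory receptor of T cells, stood at 1.41, 2.0, 1.45 and 0.799 eRPKM in controls, 0.563, 0.689, 1.63 and 0.95 at 3 days and 2.52, 2.94 and 2.73 at 7 days. The 7-day livers were the highest, but against controls the change was 0.79 (SE 0.30, adjusted p = 0.0541). Against 3 days it rose by 1.20 (SE 0.30, adjusted p = 0.00867). This was the least stable call, kept under 8 of 26 settings and lost without any 1 of 8 livers (control livers 1 and 3, 3-day livers 1, 2 and 4, and each 7-day liver), at 1.06 to 1.25. Tnfrsf18 (GITR) changed by 0.54 (SE 0.37, adjusted p = 0.268) and Tnfrsf4 (OX40) by 0.53 (SE 0.52, adjusted p = 0.451) against controls, Tnfrsf25 (DR3) by -0.17 (SE 0.47, adjusted p = 0.80), Tnfrsf14 (HVEM) by 0.58 (SE 0.33, adjusted p = 0.18) and its ligand Tnfsf14 (LIGHT) by 0.07 (SE 0.37, adjusted p = 0.896), none of them called. Of the exon bases of Tnfrsf18, 27.2% are shared with Gm16008 on the other strand.

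The remaining members were under the filter. The 12 are Lta, Cd40lg, Tnfsf11 and Tnfsf13b, described above with Tnfrsf17, the ligands Tnfsf4, Tnfsf8, Tnfsf9, Tnfsf15 and Tnfsf18, and the receptors Tnfrsf8 and Tnfrsf9. Tnfsf9 (4-1BB ligand) reached 1.04 eRPKM, Tnfsf15 (TL1A) 0.625, Tnfsf8 (CD30 ligand) 0.439, Tnfrsf9 (4-1BB) 0.349, Tnfrsf8 (CD30) 0.305, Tnfsf18 (GITR ligand) 0.241 and Tnfsf4 (OX40 ligand) 0.164 at most. None of the 12 was tested for a difference between groups.

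More members were called between 3 and 7 days than against controls. Between these groups 11 of 26 members rose (42.3%, against 14.0% of all genes tested) and 1 fell (3.85%, against 5.31%). The risers were the 7 that rose against controls plus Cd27, Tnfrsf10b, Tnfrsf1a and Tnfrsf23, and Tnfsf10 was again the 1 that fell. The 7-day livers lay above all 3-day livers in 16 members (31.3% of all genes) and below them in 2, Tnfsf10 and Fas (13.8%). The median log2 fold change was 0.85 over the members and 0.26 over all genes. As against controls, 3 of the 26 members were tested only with the help of the 7-day livers, so the share and the median are a description. The risers numbered 7 without 7-day liver 1 or 2 and 5 without 7-day liver 3. Both 7-day comparisons use the same 7-day livers, so they are not independent of each other.

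Of 35 genes that carry TNF receptor signals inside the cell, 34 were in the table and all 34 were tested. At 3 days 0 rose and 0 fell. At 7 days against controls 7 rose, 1 fell and 26 were not called. The risers were 20.6% of the list, against 18.0% of all genes tested, and the gene that fell was 2.94%, against 5.77%. The median log2 fold change was 0.50, against 0.26 over all genes. Ripk3, the kinase of necroptosis, rose by 3.06 (SE 0.40, adjusted p = 1.0e-04), from 1.9 ± 1.32 (SD, n = 4) to 17.1 ± 3.51 (SD, n = 3) eRPKM. Tnfaip3 (A20), an NF-κB target that ends NF-κB signaling, rose by 2.79 (SE 0.28, adjusted p = 1.5e-05), and its partner Tnip1 by 1.56 (SE 0.33, adjusted p = 0.00249). Map3k14 (NIK), the kinase of the non-canonical NF-κB pathway downstream of Cd40 and Ltbr, rose by 1.29 (SE 0.25, adjusted p = 0.00155).

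The other signaling risers were Tab1, an activator of the kinase TAK1, at 1.24 (SE 0.26, adjusted p = 0.0024), Adam17, the protease that sheds TNF, at 0.86 (SE 0.19, adjusted p = 0.00298), and the deubiquitinase Cyld at 0.67 (SE 0.16, adjusted p = 0.00487). Chuk, the kinase IKKα, fell by 1.15 on the log2 scale, from 88.7 ± 4.72 (SD, n = 4) to 39.9 ± 4.09 (SD, n = 3) eRPKM. The list thus holds both activators and inhibitors of NF-κB among the genes that rose. Against 3 days 7 rose (Map3k14, Mlkl, Ripk3, Tab1, Tnfaip3, Tnip1 and Traf3) and Chuk fell by 1.11 on the log2 scale. These risers were 20.6% of the list, against 14.0% of all genes tested, and the gene that fell was 2.94%, against 5.31%. The count of risers against controls fell to 2 with depth as a covariate or without 7-day liver 3, to 3 under quantile normalization, and to 4 without 7-day liver 1 or among Xist-high livers. Against 3 days it fell to 4 without 3-day liver 1, 2 or 4 or any 1 of the 7-day livers.

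Of 7 superfamily genes outside the symbol rule, 5 were tested and 3 rose at 7 days against controls (60.0%, where 18.0% of all genes tested rose). Tnfrsf12a (Fn14), the receptor of TWEAK, averaged 8.67 ± 1.9 eRPKM (SD, n = 4) in controls, 27.3 ± 5.64 (n = 4) after 3 days and 127 ± 11.3 (n = 3) after 7 days, a log2 fold change of 3.82 (SE 0.19, adjusted p = 2.2e-07) at 7 days. It was also the 1 gene of these called at 3 days, at 1.60 (SE 0.18, adjusted p = 0.0055), and that count was 0 without any 1 of control livers 1 to 3, 3-day livers 2 to 4 or the 7-day livers. Eda2r (XEDAR), a receptor of ectodysplasin and a known p53 target, rose by 2.95 (SE 0.37, adjusted p = 6.9e-05), and Relt by 1.39 (SE 0.33, adjusted p = 0.00577). Of the exon bases of Tnfrsf12a, 8.10% are shared with Hcfc1r1 on the other strand.

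Macrophage markers were higher at 7 days, the time at which 7 of 26 members rose against controls. Of 10 macrophage markers listed, 8 were in the table and tested, and 7 of them rose against controls and against 3 days (Cd14, Cd5l, Cd68, Csf1r, Marco, Timd4 and Vsig4). Among all genes tested 18.0% rose against controls and 14.0% against 3 days. The summed level of the list was 830 to 881 eRPKM at 7 days, against 190 to 397 for controls and 222 to 430 at 3 days, so the 7-day livers did not overlap the others. Monocyte and neutrophil markers summed to 47.5 to 53.5 eRPKM at 7 days, against 14.6 to 25.1 for controls and 10.8 to 20.4 at 3 days, with 2 of 5 tested called higher against controls (Ccr2 and S100a9). Of that list, Mpo was at 0 in all 3-day livers. Tnf, Cd40 and Tnfrsf1b are known from these cells, and the part of macrophages in the rise of any member was not tested. In whole liver, more cells of a type and more RNA per cell cannot be told apart.

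**Figure D4:**
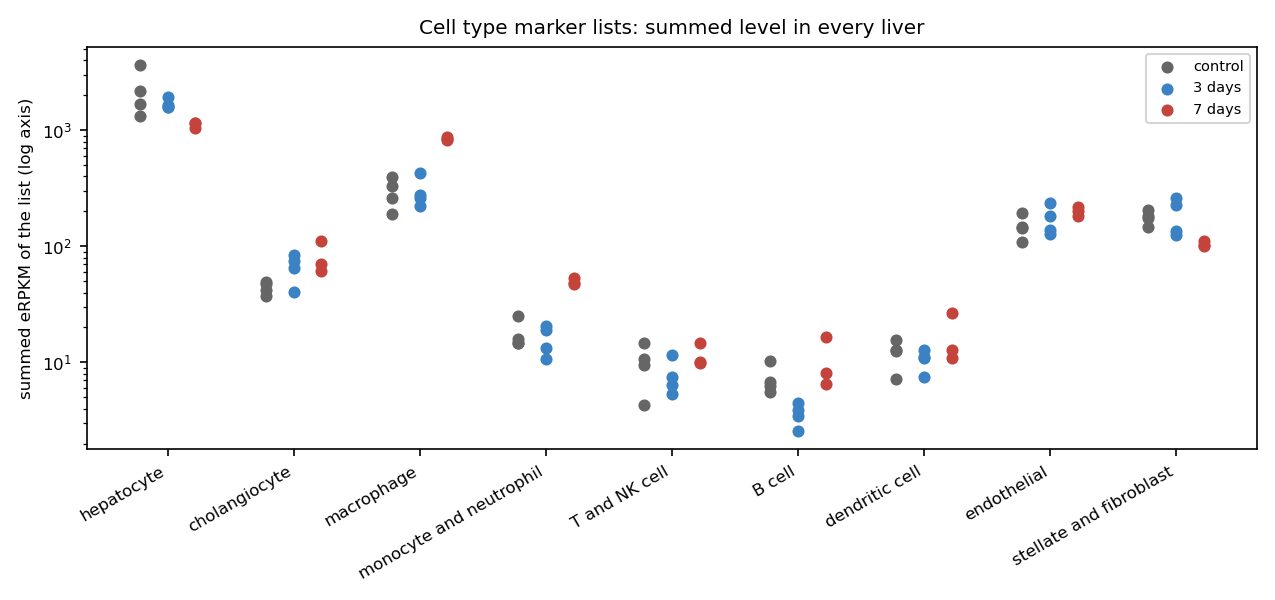
Summed eRPKM of 9 lists of cell type markers (log axis), 1 point per liver, in controls (gray), at 3 days (blue) and at 7 days (red). The macrophage list is at 830 to 881 in the 7-day livers and at 430 or lower in all others. The monocyte and neutrophil and the cholangiocyte lists also lie higher in the 7-day livers than in controls and the hepatocyte and the stellate and fibroblast lists lower, without overlap, while the other 4 lists overlap between these groups. Among the controls the hepatocyte sum is higher in shallower libraries, and most of the cholangiocyte sum is the gene Spp1.

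Of 10 T and NK cell markers tested 1 rose at 7 days against controls (Cd4), and of 5 B cell and 4 dendritic cell markers tested 0 did. Among all genes tested in that comparison 18.0% rose and 5.77% fell. B cell markers summed to 6.55 to 16.6 eRPKM at 7 days, against 5.51 to 10.2 for controls and 2.57 to 4.5 at 3 days. Of 7 hepatocyte markers 2 fell (Tat and Ttr), and the list summed to 1331 to 3630 eRPKM in controls and 1041 to 1160 at 7 days. Among the controls this sum followed depth, from 3630 in liver 4 (1251396 reads) to 1331 in liver 2 (5495697 reads). Depth was high in all 7-day livers (5312486 to 5941357 reads). The highest eRPKM of any gene was 1024 in control liver 4, 273 in control liver 2 and 245 to 277 at 7 days. The gene with most reads per kilobase had 1281 to 1501 of them in every library. The part of depth in the lower sum at 7 days was not tested, and the falls of Tat and Ttr carry the same limit. Of 5 cholangiocyte markers tested 1 rose (Krt7), of 6 endothelial markers 2 rose (Cdh5 and Lyve1), and of 6 stellate cell and fibroblast markers 1 fell (Reln). The endothelial markers Clec4g (-0.77, adjusted p = 0.0409) and Kdr (-0.06, adjusted p = 0.857) were lower against controls without a call. Against 3 days Cdh5 and Lyve1 rose and Clec4g fell (-1.11, adjusted p = 0.00805). The cholangiocyte list summed to 61.6 to 112 eRPKM at 7 days, 40.5 to 84.7 at 3 days and 37.6 to 49.1 for controls. Most of it was Spp1, which averaged 38.7 in controls, 60.7 at 3 days and 67.4 at 7 days. Spp1 was not called at 7 days against controls (0.74, SE 0.27, adjusted p = 0.0477). The stellate cell and fibroblast list summed to 99.9 to 110 eRPKM at 7 days against 147 to 206 for controls. The part of these cells in the changes of the members was not tested.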

How the data were processed

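Total RNA of whole livers was sequenced by the authors on an Illumina instrument after TruSeq preparation, low-quality bases were masked, and reads were aligned to mm9 without strand information (TopHat2 2.0.8 with featureCounts 1.4.5-p1, SAMtools and DESeq2 also named in the submitters' processing notes). The handling of duplicate reads is not given in the sources used here. The deposited eRPKM values are RPKM-type values, in which the authors divided the exonic reads of each gene by its length and by library size. The deposited table also holds the authors' own test of 7 days against control (mean signal, log2 fold change, adjusted p-value), which was not used.

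Each gene's values stepped by the worth of 1 read, and dividing by that step left 177553 of 177553 nonzero values (100%) no more than 0.1 from a whole number. The step of a gene was chosen to make its values whole, so this share follows from that choice. In the 3056 genes with reads in 2 or fewer libraries, among them Lta, Tnfrsf17, Tnfsf11 and Tnfsf4, the reads are the smallest whole numbers that fit. These whole reads gave depth and 1 alternative fit. The gene with most reads per kilobase had 1281 to 1501 in every library despite the differing depth, and members had at most 415.

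Genes were tested with limma 3.58.1 under R 4.3.3 (moderated by eBayes with a mean trend), taking log2(eRPKM + 0.5), with all 11 libraries in 1 fit and no covariate, and p-values were adjusted by Benjamini-Hochberg over the 14244 genes tested. The fit was tested on simulated data. GENCODE M1 (mm9) gave the positions and the exon overlaps, and 50-base stretches were compared between protein-coding transcripts. Members called in any comparison were described in every library, others by range or log2 fold change, and only called genes of the 2 pathway lists were named. The members and lists were chosen with earlier results of these data known. The fits were repeated with a pseudocount of 1 or 0.1, without the filter or with a mean of 1 eRPKM in its place, scaled by median-ratio size factors or by quantiles, with 2 groups only, with robust eBayes, with voom on the whole reads, a block for replicate numbers, covariates for log2 depth, log2 Xist or the MF label suffix, Xist-high livers only, each liver left out, and a looser threshold (adjusted p under 0.05, no limit on fold). Software was Python 3.11.15 with pandas 2.3.3, numpy 2.4.6, matplotlib 3.10.9 and scipy 1.17.1.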

Additional observations from a re-analysis of the deposited data

Results flagged for a closer look

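In 12 members the change at 7 days differed from that at 3 days past the threshold of the limma test between these groups (Benjamini-Hochberg adjusted p under 0.01). The difference on the log2 scale was 2.61 for Tnfrsf11a, 2.47 for Cd40, 2.23 for Tnf, 2.15 for Tnfrsf26, 1.71 for Tnfrsf21, 1.55 for Tnfrsf19, 1.43 for Tnfsf13, 1.32 for Tnfrsf23, 1.20 for Cd27, 1.13 for Tnfrsf10b, 0.71 for Tnfrsf1a and -1.40 for Tnfsf10.

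Control liver 2 stood apart in Tnfrsf1b, at 18.3 eRPKM against 11.3 to 12.4 in the other controls (a gap of 0.853 of the group's range, past Dixon's 95% limit). It was the 1 flag among 52 groups looked at, and chance gives about 1 in 20.

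Tnfsf9, the ligand of 4-1BB, was under the filter and in no comparison. It averaged 0.715 ± 0.302 eRPKM (SD, n = 3) at 7 days, from 3, 5 and 7 reads, against 0 reads in all 3-day livers and 0, 2, 1 and 0 reads in control livers 1 to 4.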

How the results depend on the processing

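Of 20 called changes of members, 10 were kept under all 25 or 26 alternatives, and no called change reversed. The looser threshold, 1 of these alternatives, keeps every call by design. Of 58 values that were not called, 31 changed sign under at least 1 alternative. Among members, risers against controls numbered 11 instead of 7 at a looser threshold (adjusted p under 0.05, no limit on fold). Risers against 3 days numbered 7 instead of 11 under quantile normalization and with log2 depth or log2 Xist as a covariate, and 6 among Xist-high livers. Members that fell numbered 2 instead of 1 with median-ratio size factors and quantile normalization, where Fas was added. Over all genes, risers against 3 days moved too, from 1997 as deposited to 1413 under quantile normalization and 1091 with log2 depth. Falls over all genes numbered 756 as deposited, 1183 with size factors and 1413 under quantile normalization. Leaving out 1 liver at a time gave 6 to 8 risers and 0 to 1 falls against controls, 5 to 12 risers and 0 to 1 falls against 3 days, and 0 at 3 days.

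The labels do not say that replicate numbers pair the livers. Deviations from group means correlated at -0.22 to 0.27 over 10 same-numbered pairs and at -0.28 to 0.24 over the other pairs. Xist-high and Xist-low livers were mixed in both kinds of pair, so these values cannot decide whether livers were paired. With the replicate block, members that rose against 3 days numbered 7 and signaling genes 4, and against controls 7 members rose.

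Signaling genes that rose against controls numbered 3 under quantile normalization, 2 with depth as a covariate, 4 among Xist-high livers and 12 at the looser threshold, and those that fell 2 with size factors, quantile normalization, the compared groups only, the MF suffix and the looser threshold. Against 3 days risers numbered 4 with no filter, log2 depth, log2 Xist and Xist-high livers, and 11 at the looser threshold, and falls 3 with size factors and 2 with quantile normalization and the looser threshold. Leaving out 1 liver gave 2 to 8 risers and 1 fall against controls, 4 to 9 risers and 1 to 2 falls against 3 days. Of the genes outside the symbol rule, the 1 called riser at 3 days became 0 under quantile normalization, the compared groups only, voom and log2 depth, and 1 fell against controls under quantile normalization. Their 2 risers against 3 days became 1 with a pseudocount of 0.1, no filter, size factors, quantile normalization, the compared groups only, the MF suffix, log2 depth, log2 Xist and Xist-high livers, and 4 with voom and at the looser threshold. Leaving out 1 liver gave 0 to 1 risers at 3 days, 2 to 4 against controls and 1 to 4 against 3 days. The cause of these moves was not tested.

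Over all genes, 2561 rose and 822 fell at 7 days against controls as deposited, 1950 and 1255 with size factors, and 1865 and 1791 under quantile normalization. With log2 depth as a covariate 1099 rose and 577 fell. Depth was lowest in control liver 4 and highest at 7 days, and sex, read from Xist, was not balanced, so members with few reads are known only to within a few fold in the shallow controls.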
